A study of Mus musculus with 2 samples.

Results

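The 9 genes described here encode the amyloid precursor protein family (App, Aplp1 and Aplp2) and enzymes that cut its members: the sheddases Adam10 and Bace1, and 4 subunits of gamma-secretase (Psen2, Ncstn, Aph1a and Psenen). They were taken from 43346 mouse genes by symbol, through the gene identifiers of both deposited gene tables, and all 9 matched. The tables come from total RNA-seq of forebrain from healthy embryos of the mouse strain B6NCrl at 12.5 days, with no treatment or transgene. Each of the 2 libraries was made from 10 ng of RNA of longer size: replicate 1 from a pool of 120 embryos and replicate 2 from a pool of 68, both sexes mixed. The pools form 1 group, so the data give levels, transcript shares and the spread between pools, and allow no test between conditions. With 2 samples no test could reach significance, so no p-value is given.

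App and its relatives are single-pass membrane proteins with a large extracellular part and a short cytoplasmic tail. A sheddase first releases the extracellular part: Adam10 makes the alpha cut, and Bace1 makes the beta cut in App that is the first step towards amyloid beta. Gamma-secretase, a complex of a presenilin, nicastrin (Ncstn), an Aph1 protein and Pen-2 (Psenen), then cuts the stub left in the membrane. The same order of cuts, by Adam10 and then gamma-secretase, activates Notch receptors, which keep progenitors of the embryonic forebrain from differentiating too early.

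App and Aplp2 transcripts can carry an exon that encodes a Kunitz domain, a fold that inhibits serine proteases. The sequences below show that exon, because the transcript shares reported further on turn on it. They were read from the GENCODE M21 transcripts (build GRCm38, both genes on the minus strand) and are written 5′ to 3′. The first pair are the 168-base Kunitz exons of Aplp2 (chr9:31167561-31167728, exon 7 of Aplp2-201) and App (chr16:85043576-85043743, exon 7 of App-202), coding exons in which capitals mark the cysteine codons in frame.
Aplp2 Kunitz exon: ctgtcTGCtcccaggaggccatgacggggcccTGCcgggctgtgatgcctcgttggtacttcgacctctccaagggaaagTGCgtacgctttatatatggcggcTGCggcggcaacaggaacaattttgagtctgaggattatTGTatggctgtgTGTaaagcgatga
App Kunitz exon: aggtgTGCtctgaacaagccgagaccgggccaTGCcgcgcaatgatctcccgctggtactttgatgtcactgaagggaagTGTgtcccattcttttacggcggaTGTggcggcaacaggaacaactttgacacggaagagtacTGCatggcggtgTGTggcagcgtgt
Each exon has 6 cysteine codons, as many as a Kunitz domain has cysteines, and each matched the Kunitz family signature when translated. The exons were identical at 114 of 168 bases (67.9%).

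The next 3 sequences show transcripts without that exon. Aplp2-202 lacks it and has, further along, a 36-base exon that Aplp2-201 lacks (chr9:31156190-31156225, exon 13). That 36-base exon is printed in capitals between 30 bases of each neighbouring exon. In the junctions, the last 30 bases before the skipped exon are in lower case and the 30 bases after it in capitals. The Aplp2 junction joins positions 31168708 and 31164673 of chromosome 9, and the App junction joins 85056324 and 85030365 of chromosome 16.
Aplp2 short exon: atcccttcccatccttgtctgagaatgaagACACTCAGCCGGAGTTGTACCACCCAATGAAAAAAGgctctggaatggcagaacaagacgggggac
Aplp2 skipping junction: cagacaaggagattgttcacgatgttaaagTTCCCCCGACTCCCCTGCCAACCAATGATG
App skipping junction: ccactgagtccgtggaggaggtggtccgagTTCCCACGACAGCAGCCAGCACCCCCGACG
The App junction is the one in App-201, the only App transcript in the deposited tables.

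All 9 genes were expressed, and they spanned a wide range from Aplp1 at the top to Psen2 at the bottom. Levels are in TPM, a unit divided by transcript length and scaled to the same total in every library, so that genes can be compared. Where a pair of values is given without a label, the first is from replicate 1. Each of the 9 passed 1 TPM in both pools, as did 60.0% of 21461 protein-coding genes. Their median was 90.2 TPM, against 21.6 TPM over the 12867 nuclear protein-coding genes that passed. The 9 were listed with earlier results of these data known, so this difference is not read as a result about the family. Errors are the SD over the 2 pools unless named otherwise. The tables also give a posterior mean TPM with an interval for each library. That interval covers counting and read assignment only, the sources used here do not give its level, and the TPM used as the main value can lie just outside it.

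**Figure D1:**
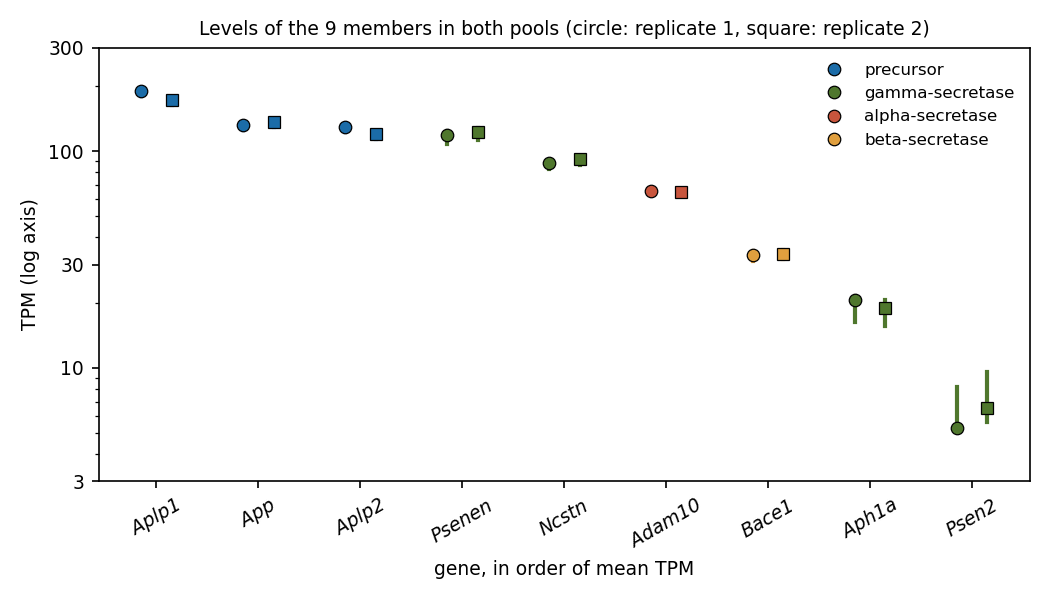
TPM of the 9 genes (log axis) in replicate 1 (circles) and replicate 2 (squares), coloured by role, with lines for the deposited interval of the posterior mean TPM in each library. Aplp1 is highest in both pools at 189 and 172 TPM, and Psen2 is lowest at 5.27 and 6.53 TPM with the widest intervals relative to its level.

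Aplp1, the family member known mainly from neurons, was the most abundant of the 9. It measured 189 and 172 TPM, the pool of 120 embryos being the higher, on 8743 and 8251 expected counts (180 ± 12.5 TPM, n = 2). This placed it at the 93.7th percentile of the protein-coding genes that passed 1 TPM. Aplp1 (ENSMUSG00000006651) lies on chromosome 7 from 30434982 to 30445535 on the minus strand.

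App, whose product gives the family its name, stood at 132 and 136 TPM (134 ± 3.11 TPM, n = 2). The values rest on 8043 and 8654 expected counts and lie at the 90.8th percentile. App (ENSMUSG00000022892) spans 84949685 to 85173766 on the minus strand of chromosome 16.

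Aplp2, the relative with the broadest known tissue expression, was close to App. Its levels were 129 and 120 TPM (124 ± 6.37 TPM, n = 2), on 9099 and 8794 expected counts. The gene (ENSMUSG00000031996) lies on chromosome 9 from 31149557 to 31211815, minus strand. App and Aplp2 could not be ordered: the log2 ratio of TPM + 1 of App over Aplp2 was 0.03 and 0.18, and Aplp2 itself differed by 0.10 between the pools. Aplp1 exceeded Aplp2 1.47-fold and 1.43-fold in TPM and App 1.44-fold and 1.26-fold, more than either gene differed between pools.

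The 3 precursor genes summed to 450 and 427 TPM. Aplp1 supplied 41.1 ± 1.38% of that sum, App 30.6 ± 1.81% and Aplp2 28.3 ± 0.434% (SD, n = 2). No gene of the family therefore held most of its transcripts in either pool.

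Among the sheddases, Adam10 was higher than Bace1 in both pools. Adam10 (ENSMUSG00000054693, chromosome 9, 70678997 to 70780229, plus strand), the metalloprotease of the alpha cut and of Notch shedding, measured 65.8 and 65.0 TPM on 5930 and 6078 expected counts. Bace1 (ENSMUSG00000032086, chromosome 9, 45838580 to 45864399, plus strand), the aspartyl protease of the beta cut, measured 33.1 and 33.7 TPM on 3299 and 3304 expected counts. The pools nearly coincided for both genes, at 65.4 ± 0.530 TPM for Adam10 and 33.4 ± 0.410 TPM for Bace1 (n = 2).

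Adam10 exceeded Bace1 1.98-fold in replicate 1 and 1.93-fold in replicate 2. Counting only transcripts annotated as protein-coding, a choice made after seeing the data, the ratio was 3.01-fold and 3.33-fold. Leaving out a Bace1 transcript with a retained intron, described further on, gives nearly all of that shift. Adam10 had 99.2 ± 0.352% of its TPM in coding transcripts and Bace1 had 61.3 ± 5.84% (SD, n = 2).

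The gamma-secretase genes differed most among themselves. Psenen, which encodes the small subunit Pen-2, measured 119 and 123 TPM (121 ± 3.18 TPM, n = 2). Its transcript is short, so these levels rest on only 1313 and 1419 expected counts. Psenen (ENSMUSG00000036835) lies on chromosome 7 from 30561863 to 30563627, minus strand, 116327 bases from Aplp1. It overlaps U2af1l4 (92.1 and 97.8 TPM) on the opposite strand over 327 bases. No source states that counting used strand, so reads of U2af1l4 and Psenen cannot be told apart in the overlap.

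Ncstn, the gene of nicastrin, the subunit that receives the stub of the substrate, measured 88.4 and 92.0 TPM (90.2 ± 2.55 TPM, n = 2) on 4377 and 4595 expected counts. It lies on chromosome 1 from 172066013 to 172082795, minus strand (ENSMUSG00000003458). The pools differed little, and both values were above those of Adam10 and below those of Psenen.

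Aph1a, a scaffold subunit, was lower, at 20.6 and 18.8 TPM (19.7 ± 1.29 TPM, n = 2), near the middle of expressed genes at the 47.3rd percentile. It rests on 874 and 858 expected counts. Aph1a (ENSMUSG00000015750) lies on chromosome 3 from 95893969 to 95898288, plus strand.

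Psen2, a presenilin and so a catalytic subunit, was the lowest of the 9, at the 20.8th percentile. Its TPM was 5.27 in replicate 1 and 6.53 in replicate 2 (5.90 ± 0.891 TPM, n = 2), on 189 and 185 expected counts. The deposited posterior mean was 6.75 TPM with an interval from 5.44 to 8.19 in replicate 1 and 7.60 TPM with an interval from 5.66 to 9.61 in replicate 2. Psen2 (ENSMUSG00000010609) lies on chromosome 1 from 180227004 to 180263438, minus strand.

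Within gamma-secretase the TPM of Psenen was thus 20.5-fold that of Psen2 and 6.13-fold that of Aph1a. Psenen supplied 51.1 ± 0.194% of the summed TPM of the 4 genes, Ncstn 38.1 ± 0.218%, Aph1a 8.34 ± 0.731% and Psen2 2.49 ± 0.320% (SD, n = 2). Other presenilin and Aph1 proteins can take the place of Psen2 and Aph1a in the complex, so these shares do not give the makeup of the complex. The limit from the overlap of Psenen with U2af1l4 holds for these folds and shares as well.

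The order of the 9 levels was mostly larger than the spread between pools. A pair was called separated where its log2 ratio of TPM + 1 had the same sign in both pools and exceeded the larger difference of either gene between pools. Of 36 pairs 34 were separated, and the same 34 had deposited intervals that did not overlap in either pool. From top to bottom, 6 of the 8 neighbours were separated: Aplp1 and App, Psenen and Ncstn, Ncstn and Adam10, Adam10 and Bace1, Bace1 and Aph1a, and Aph1a and Psen2. App and Aplp2 were not separated, nor were Aplp2 and Psenen, whose log2 ratio was 0.12 and then -0.04. In coding transcripts alone 33 pairs were separated, because Bace1 then fell to 21.7 and 19.3 TPM and could not be told from Aph1a at 20.6 and 18.8 TPM.

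Aplp2 transcripts with and without the Kunitz exon were both abundant. The tables list 2 Aplp2 transcripts, and the 1 with the exon, Aplp2-201, held 60.5% of Aplp2 TPM in replicate 1 and 55.5% in replicate 2 (58.0 ± 3.48%, n = 2). Aplp2-201 measured 77.8 and 66.5 TPM, with deposited intervals from 70.9 to 79.7 and from 60.1 to 70.3 TPM, which do not overlap. Aplp2-202, the transcript with the 36-base exon, measured 50.9 and 53.2 TPM, with intervals from 45.5 to 54.2 and from 46.0 to 56.6 TPM, which do. The Kunitz form was thus lower in replicate 2 beyond its intervals, while the other form differed by less than its own.

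The 2 listed forms code for 751 and 707 codons and differ in length by 132 bases in the tables, the 168 bases of the Kunitz exon less the 36 of the other exon. Among the 4 coding Aplp2 transcripts in M21, 1 has both exons and 1 has neither, and these were not in the annotation the authors used. Reads of such transcripts can be counted only in the listed forms, so the share is that of the 2 listed forms and not of each exon.

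For App the Kunitz share could not be measured. The 1 App transcript in the tables, App-201, has 695 codons and skips the exon at the junction printed above, which is the form known to predominate in neurons. In M21 App has 11 transcripts, 6 of them with the Kunitz exon. None of these 6 was listed, so reads from the Kunitz exon of App have no transcript to be counted in, and reads from exons that all forms share count towards App-201. The App level of 134 TPM thus takes in reads of all forms where they share sequence with App-201, on the length of that 1 form. Reads of the Kunitz exon are left out of it. The exon contents were taken from M21, where App-201 is 3176 bases long, against 3128 in the tables.

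**Figure D2:**
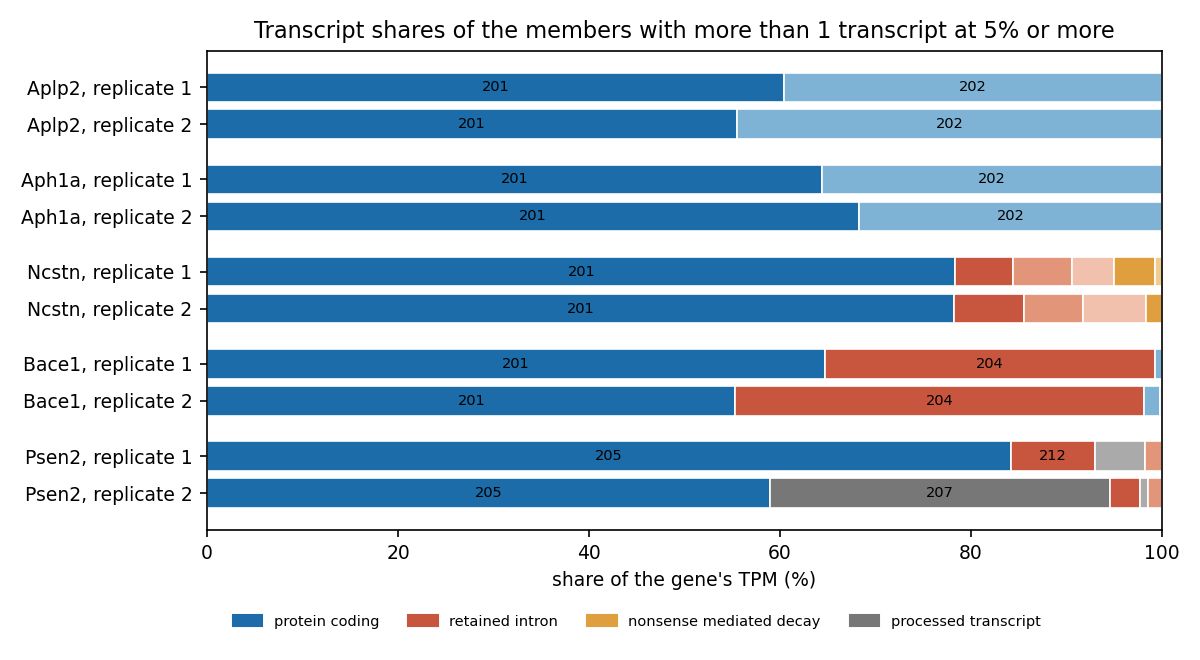
Share of a gene's TPM (percent, x axis) held by each transcript in each pool, for the 5 genes with more than 1 transcript at 5% or more. Colours give the annotated class and the numbers are transcript name endings; Bace1-204 holds 34.5% and 42.8%, and Psen2-207 is listed at 0% in replicate 1 and 35.6% in replicate 2.

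A large share of Bace1 TPM was assigned to a transcript that is not annotated to make protein. Bace1-201, which encodes the full enzyme of 501 codons, held 64.8% of Bace1 TPM in replicate 1 and 55.3% in replicate 2. Nearly all the rest was in Bace1-204, a transcript with a retained intron, at 34.5% and 42.8%. The libraries were of total RNA, so reads of unspliced RNA cannot be told from reads of a retained intron, here or for Ncstn below. In TPM, Bace1-201 went from 21.5 in replicate 1 to 18.7 in replicate 2, with intervals from 19.5 to 22.1 and from 16.9 to 19.3 that do not overlap. Bace1-204 went from 11.4 to 14.4 TPM, with an upper bound of 13.0 in replicate 1 and a lower bound of 12 in replicate 2, so that these intervals do. In TPM the total of the gene was the same within 1.75% in the pools while its 2 main transcripts differed in opposite directions. That total depends on the transcript split, through an effective length of 4939 bases in replicate 1 and 4669 in replicate 2. In expected counts scaled by TMM the log2 ratio of replicate 2 over replicate 1 was -0.07 for Bace1. Bace1 overlaps the genes Rnf214 (975 bases) and Gm16536 (1589 bases) on the opposite strand, and no source states that counting used strand, so reads of these genes cannot be told apart in the overlaps.

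Ncstn held 78.4% and 78.3% of its TPM in Ncstn-201, its only coding transcript in the tables, of 708 codons. Transcripts with retained introns held 16.6% in replicate 1 and 20.1% in replicate 2: Ncstn-202 had 6.18 and 6.25%, Ncstn-205 had 6.04 and 7.26%, and Ncstn-203 had 4.36 and 6.61%. The coding share was nearly equal in the pools, at 78.3 ± 0.0904% (SD, n = 2). In TPM the coding transcript stood at 70.6 ± 1.92, above the coding level of Adam10 at 64.9 ± 0.757 (n = 2).

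Aph1a was split between 2 coding transcripts that differ at the end of the protein. Aph1a-201, of 247 codons, corresponds in length to the known short form and held 64.4% of Aph1a TPM in replicate 1 and 68.3% in replicate 2. Aph1a-202, of 265 codons, corresponds to the long form and held 35.6 and 31.7%. The interval of Aph1a-202 ran from 3.17 to 8.64 TPM in replicate 1 and from 2.99 to 8.22 TPM in replicate 2, so the split is loosely fixed. Its length was 1000 bases in the tables and is 1601 in M21, and the split was not recomputed with that length.

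Psen2 had too few reads to settle its transcripts. Psen2-205, a coding transcript of 448 codons, held 84.2% of Psen2 TPM in replicate 1 and 59.0% in replicate 2. The remainder was mostly in Psen2-212 (8.84%) and Psen2-210 (5.21%) in replicate 1, and in the noncoding Psen2-207 (35.6%) in replicate 2. By the posterior mean, which spreads reads over similar transcripts, Psen2-205 held 32.7 and 18.8%. The choice moved the level as well: the assigned transcripts gave an effective length of 1780 bases in replicate 1 and 1350 in replicate 2. With nearly equal counts of 189 and 185, Psen2 was higher in replicate 2 by 0.26 on the log2 scale of TPM + 1 (1.24-fold in TPM itself) and lower by 0.10 in expected counts scaled by TMM, so its direction between pools depends on the unit.

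App, Aplp1 and Psenen were each listed with 1 transcript, which holds 100% by construction, against 11, 5 and 7 in M21. Adam10 held 99.5 and 99.0% in Adam10-201. In all, the tables list 35 transcripts of the 9 genes, of which 18 reached 5% of their gene in either pool, and M21 lists 65.

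No gene of the set differed between pools by over 0.32 on the log2 scale of TPM + 1, the limit used to call a difference. Over it were 0 of 9, beside 13.0% of the 15315 genes at a mean of 1 TPM or more (8.84% higher in replicate 2 and 4.19% lower). The median size of the log2 ratio of TPM + 1 was 0.06 over the 9 genes, and 0.08 over the 9946 genes whose mean lay between those of Psen2 and Aplp1. In TPM 5 of the 9 were higher in replicate 2 and 4 lower. In expected counts scaled by TMM 2 were higher and 7 lower, since Psen2, Bace1 and Ncstn changed side.

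**Figure D3:**
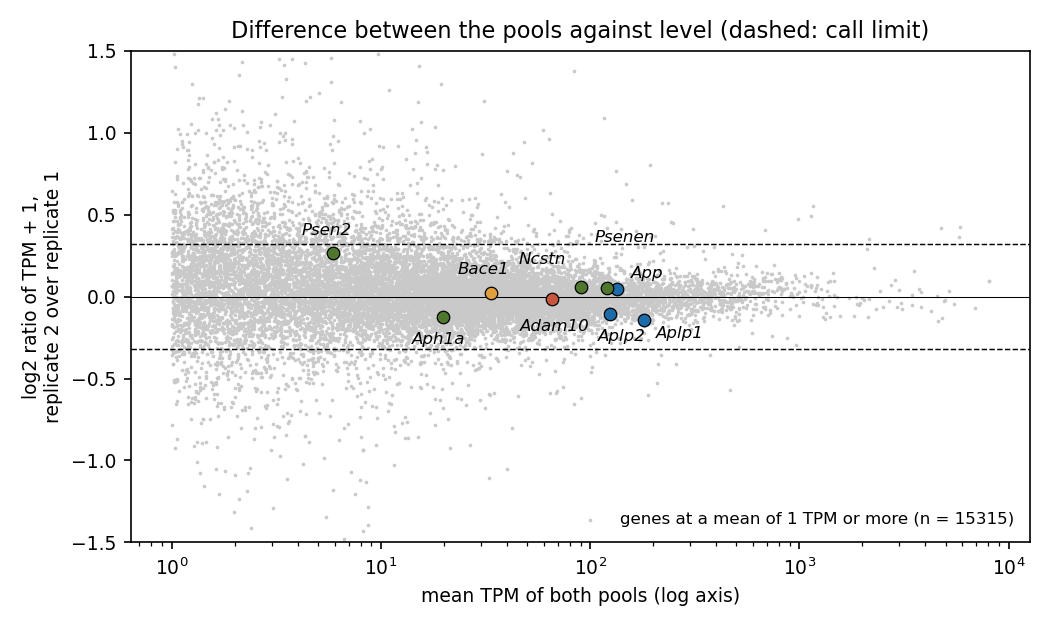
Log2 ratio of TPM + 1 of replicate 2 over replicate 1 (y axis) against mean TPM (log axis) for 15315 genes in grey and the 9 genes in colour by role. Dashed lines mark a log2 ratio of 0.32 in either direction, 159 grey genes lie beyond the y axis, and all 9 coloured points lie inside the lines, Psen2 nearest to one at 0.26.

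Aplp1 and Aplp2 were nevertheless apart between pools by their own error. The posterior mean of Aplp1 was 184 TPM in replicate 1 with an interval from 180 to 188, and 167 TPM in replicate 2 with an interval from 163 to 171. That of Aplp2 was 125 TPM with an interval from 123 to 128, and 117 TPM with an interval from 114 to 119. For the other 7 genes the intervals of the pools overlapped. Gaps of this kind were common: 14.0% of the 15315 genes at a mean of 1 TPM or more had one, and 15.4% of the 9946 genes in the level range of the 9, so a count of 2 among 9 is not read as particular to these genes. These intervals cover error within a library, so a gap between them says that the pools differed by more than counting and assignment error. In TPM, replicate 2 differed from replicate 1 by -9.36% for Aplp1 and -7.0% for Aplp2.

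The tissue matched its label, and other cell types were present in both pools. All 6 forebrain factors listed (Lhx2, Nr2e1, Emx2, Emx1, Dlx1, Dlx2) passed 1 TPM, with summed levels of 710 and 643 TPM, while 0 of 5 Hox genes of the hindbrain and spinal cord did, with Hoxa2 at 0 in both pools. The forebrain sum hides opposite shifts: Lhx2, Emx1 and Emx2 were higher in replicate 2 (Emx1 at 58.9 and 73.5 TPM), and Dlx1 and Dlx2 were lower, at 246 and 171 TPM for Dlx1 and 109 and 70.8 TPM for Dlx2, with Nr2e1 nearly equal. The 4 neuronal markers (Tubb3, Stmn2, Map2, Dcx) summed to 1385 and 1287 TPM, and the 4 progenitor markers (Vim, Fabp7, Hes5, Top2a) to 2538 and 2390 TPM. Of each set 3 markers were lower in replicate 2 and 1 was higher, Stmn2 (207 and 212 TPM) and Vim (906 and 922 TPM). All 4 of each of the following passed 1 TPM in both pools, and each sum was higher in replicate 2: erythroid markers at 6321 and 8597 TPM, mesenchymal at 667 and 808, mural at 58.1 and 76.6, microglial at 38.1 and 44.6, and endothelial at 89.8 and 93.9. All 4 erythroid, mesenchymal and microglial markers were higher there, but only 2 of 4 mural and 2 of 4 endothelial ones, and most of the mural rise was in Acta2 (21.2 and 39.6 TPM). The summed neuronal and progenitor levels, though not every marker, were lower in replicate 2, as Aplp1 and Aplp2 were, and App was not. The part of these cell types in the differences between pools was not tested, and in bulk RNA fewer cells of a type and less RNA per cell cannot be told apart.

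Of 70 other genes of the pathway in 9 lists, 69 were found (Apbb3 was not analysed here). Of these, 67 of 69 passed 1 TPM in both pools, beside 60.0% of 21461 protein-coding genes. The lists were drawn up with earlier results of these data known, so their pass counts and levels are not read as a result about the pathway. The median of the 69, including those that did not pass, was 34.9 TPM. Over all nuclear protein-coding genes that passed it was 21.6 TPM. Past the log2 limit of 0.32 between pools were 5 of 69 (7.25%), with no filter on level. For comparison, 13.0% of the 15315 genes at a mean of 1 TPM or more passed it. Of all 43346 mouse genes without that filter, 7.95% did. Bace2, 1 of the 5, has a mean of 0.75 TPM and lies under the filter. These 5, named after their values were seen, were Bace2, Sort1 and Sorl1, higher in replicate 2, and Ece1 and Gpc1, lower.

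**Figure D4:**
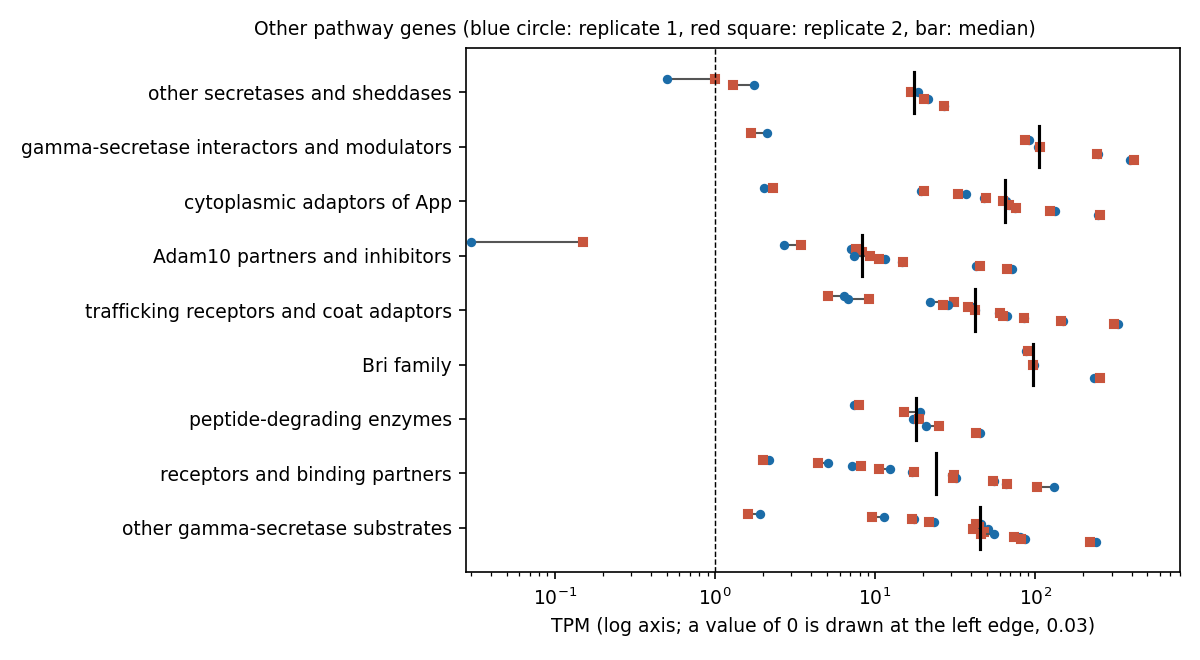
TPM (log axis) of 69 other pathway genes by list, with a circle for replicate 1, a square for replicate 2 and a bar at the median of each list. Bace2 and Tspan10 are the genes under 1 TPM in at least 1 pool, and the list of gamma-secretase interactors and modulators has the highest median, 106 TPM.

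The paralogs of the secretases were lower than the members above. Of 5 genes 4 passed. Adam17, the sheddase that shares substrates with Adam10, measured 26.8 and 27.1 TPM, below Adam10 at 65.8 and 65.0, and the metalloprotease gene Adam9 measured 21.3 and 20.2 TPM. Bace2 did not pass 1 TPM in replicate 1, with 0.50 and 1.00 TPM on 37 and 76 expected counts. Aph1b measured 18.5 and 16.8 TPM, close to Aph1a at 20.6 and 18.8 TPM, and Aph1c 1.76 and 1.29 TPM. Aph1b and Aph1c are near-identical copies in the mouse that share reads, so the split between them is uncertain, and they are named because they belong to the Aph1 family.

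The 5 genes listed as gamma-secretase interactors and modulators all passed, with a median of 106 TPM. The list name is loose for Tmem59, which is described here by its effect on App maturation. Bsg, a membrane glycoprotein found with the complex, measured 390 and 412 TPM, and Tmem59 246 and 242 TPM. Gsap was lowest at 2.11 and 1.67 TPM. All 9 cytoplasmic adaptors found passed, with a median of 64.4 TPM. Klc1, the kinesin light chain, measured 249 and 254 TPM, and Apbb1, the Fe65 adaptor that binds the App tail, 133 and 124 TPM, close to App itself at 132 and 136 TPM. Apba1 was lowest at 2.04 and 2.29 TPM.

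Among partners and inhibitors of Adam10, 8 of 9 passed and the median was 8.33 TPM, the lowest of the 9 lists. The tetraspanins that escort Adam10 to the surface were led by Tspan14 at 71.6 and 67.0 TPM and Tspan5 at 43.0 and 45.3 TPM. Tspan10 was at 0 counts in replicate 1, where 3 counts would be 0.153 TPM, and at 4 counts (0.150 TPM) in replicate 2.

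All 11 trafficking genes passed, with a median of 42.0 TPM. Rtn3, a reticulon that binds Bace1, measured 328 and 309 TPM, and Vps35, a subunit of the retromer that returns cargo from endosomes, 149 and 146 TPM. Sorcs1 was lowest at 6.37 and 5.09 TPM. The 3 Bri family genes passed as well: Itm2b, whose product binds App and is known to hinder its cutting, measured 234 and 253 TPM, Itm2c 98.3 and 96.5 TPM, and Itm2a 87.5 and 90.7 TPM.

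The 5 peptide-degrading enzymes all passed, with a median of 18.1 TPM. Ide, the insulin-degrading enzyme, measured 45.3 and 42.7 TPM, Ece2 20.9 and 25.1 TPM, and Mme, the gene of neprilysin, was lowest at 7.39 and 7.93 TPM. All 10 receptors and binding partners passed, with a median of 24.0 TPM: Gpc1, a glypican, measured 132 and 103 TPM, the endocytic receptor Lrp1 66.1 and 66.8 TPM, and Cntn4 2.19 and 1.99 TPM.

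The 12 other gamma-secretase substrates all passed, with a median of 45.5 TPM. Cdh2, the N-cadherin of neural progenitors and neurons, measured 239 and 219 TPM, above every precursor gene, and Efnb1, an ephrin, 87.0 and 81.8 TPM. Cd44 was lowest at 1.91 and 1.60 TPM.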

How the data were processed

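The authors derived each table from alignments to the transcriptome of 1 replicate (build mm10, GENCODE M4), per the text deposited with the tables. The sources used here do not give the aligner or quantifier. The deposited expected counts, estimated reads per feature, have a total of 33711030 for replicate 1 and 34578499 for replicate 2. The authors' TPM are relative to all features, ERCC spike-ins included (9.19 and 8.25% of TPM), and their FPKM are scaled by length and library size. Deposited interval bounds and the posterior SD of counts are per-feature signal columns of the same tables. Transcript shares are the percent of a gene's summed TPM, as deposited.

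Genes and transcripts were named from GENCODE M21 (same build) by identifier without version. A pseudocount of 1 was used, so a fold on that scale understates the change of low genes. TMM (edgeR 4.0.16) and DESeq2 1.42.0 size factors, on rounded expected counts, were used for scaling only. Python 3.11.15, pandas 2.3.3, matplotlib 3.10.9 and R 4.3.3 did the rest. The call limit between pools was tried on simulated counts with counting error only, for genes with higher counts than Psen2 and Bace2. That trial does not cover assignment error, differences between pools or genes with few counts. All 9 members, 70 pathway genes and 39 markers were listed with earlier results of these data known. Of each list the text names the 2 highest, the lowest and every gene under 1 TPM in either pool, and transcripts at 5% or more. Nothing was named for likeness of pattern, since 2 libraries of 1 condition give none. Intervals and floors cover counting and assignment error only. The series title says that a later deposit supersedes this one, which was not used here. Alternatives were other pseudocounts, units, scalings, thresholds and single pools.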

Additional observations from a re-analysis of the deposited data

How the results depend on the processing

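The 4 ratios between members, the count of separated pairs, the Aplp2 Kunitz share and the counts of detected genes kept their direction under every alternative run, and each count stayed within 1.5 times its main value. Separated pairs numbered 34, or 33 in coding transcripts, where Bace1 over Aph1a was no longer separated. With 1 pool left out, the log2 ratio of App over Aplp2 ran from 0.03 to 0.18, Aplp1 over Aplp2 from 0.52 to 0.55, Adam10 over Bace1 from 0.93 to 0.97, Psenen over Psen2 from 4.04 to 4.25, and the Kunitz share from 55.5 to 60.5%. The count of separated pairs has no value with 1 pool, because the rule needs both, and the App Kunitz share has none under any setting. Rescaling TPM to mouse genes raised all values by 0.14 (log2) in replicate 1 and 0.12 in replicate 2, which moved 8 of 9 levels by more than their SD. The posterior mean moved 4 of 9. Between pools, 0 of 9 genes passed a log2 ratio of 0.32 under each alternative run. Beside them were 11.4 to 17.5% of the 15315 genes at a mean of 1 TPM or more. Without that filter the share was 7.95% of all 43346 mouse genes, a setting that cannot change the count among the 9. Pathway genes detected numbered 60 at 5 TPM and 68 at 0.5 TPM. Psenen over Psen2 was 4.57 in coding transcripts and 3.86 by the posterior mean (log2). No paired analysis was possible because the series has 1 group. Psen2 had the fewest counts (189 and 185) and the widest intervals, 40.7 and 51.9% of its level, and the parts of depth and transcript assignment in that width were not separated.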

Other observations

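For 5 of the 9 genes (App, Aplp1, Aplp2, Adam10 and Psen2) the deposited posterior SD of the gene count was 0 in both pools. That SD is of the gene's total and does not cover the split among its transcripts, which was not settled for Psen2. The posterior SD was above 0 for the other 4. Psenen had 28.2 and 25.9 counts (2.15 and 1.82% of its counts), Aph1a 18.0 and 18.2, Bace1 13.1 and 11.9, and Ncstn 1.54 and 2.20. Each of these 4 overlaps a protein-coding gene on the opposite strand in M21: U2af1l4 over 327 bases of Psenen, Car14 over 521 bases of Aph1a, Rnf214 over 975 bases of Bace1 and Copa over 267 bases of Ncstn. The 5 genes with a posterior SD of 0 overlap no protein-coding gene. U2af1l4 measured 92.1 and 97.8 TPM and Copa 182 and 164 TPM, levels like those of Psenen and Ncstn or above them. Whether the overlap gives the assignment error was not tested.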
